A study of Mus musculus with 13 samples.

Results

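The transcripts described here come from 10 genes of mouse amino acid transport across the plasma membrane: Slc3a2, Slc7a5, Slc7a6, Slc7a10, Slc7a11, Slc7a1, Slc1a4, Slc1a5, Slc38a1 and Slc38a2. They were taken by gene name, and all 10 were present in each of the 3 deposited count tables, among 47729 genes in the pre-Treg table and 22048 genes in each of the other tables. The study compared regulatory T cells (Tregs) and their precursors from cRel-/-Foxp3rfp and cRel+/+Foxp3rfp mice of the C57BL6/J strain by bulk RNA sequencing. The cRel-/- mice lack c-Rel, a subunit of the transcription factor NF-kappaB, and both genotypes carry the Foxp3rfp allele, a red fluorescent reporter of the Treg transcription factor Foxp3. CD4 T cells were enriched magnetically and sorted by flow cytometry at 3 stages. These were pre-Treg cells of the thymus (3 cRel-/- and 2 cRel+/+ libraries), newly formed (de novo) thymic Tregs (2 and 2) and splenic thymus-derived Tregs (2 and 2). The labels give no age or sex, do not say in which cells cRel is missing, and do not say whether a library holds 1 animal or a pool.

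T cells cannot make several amino acids and take them up through a small set of carriers. Slc3a2 encodes the heavy chain (CD98hc) that brings most light chains of the SLC7 family to the cell surface. Among these light chains, Slc7a5 imports leucine and other large neutral amino acids in exchange for glutamine, Slc7a6 exchanges arginine for neutral amino acids, Slc7a11 exchanges cystine for glutamate, and Slc7a10 carries small neutral amino acids such as serine, glycine and alanine. Slc7a1 is a cationic carrier of arginine and lysine that needs no heavy chain. Slc1a5 and Slc1a4 are sodium-dependent exchangers of neutral amino acids, Slc1a5 being best known for glutamine, and Slc38a1 and Slc38a2 import glutamine and alanine together with sodium. Intracellular leucine and arginine are sensed upstream of the kinase complex mTORC1, and amino acid shortage raises translation of the transcription factor ATF4, several of whose known targets are themselves transporters.

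Total counts were 13656304 to 29866696 in the pre-Treg libraries, 25122095 to 28235996 in the de novo libraries and 32291272 to 35114430 in the splenic libraries. The 10 genes together took 1049 to 1458 CPM in a library (CPM, read counts scaled to a common library size over the 22048 shared genes). Counts of each stage were deposited separately, and the spleen is also another tissue, so stage, table and tissue cannot be told apart. Rel, the gene named by the genotype, had 92.0 and 101 CPM in cRel-/- de novo Tregs, against 104 and 102 CPM in cRel+/+ de novo Tregs. It was at 54.9, 52.2 and 65.9 CPM in cRel-/- pre-Tregs, against 104 and 99.6 CPM in cRel+/+ pre-Tregs, and at 43.3 and 46.1 CPM in cRel-/- splenic Tregs, against 47.2 and 56.6 CPM in cRel+/+ splenic Tregs. Rel counts cover the whole gene, so they do not check the genotype labels. Of the Treg markers, Foxp3 was at 682 to 921 CPM in de novo and splenic libraries of both genotypes and at 19.8 to 101 CPM in pre-Tregs, and Cd4 was at 654 CPM or more in all 13 libraries. The library labelled cRel-/- pre-Treg replicate 2 stood apart from the other pre-Treg libraries, with root mean square log2 differences of 0.75 to 0.94 against 0.55 to 0.77 among the others. Pre-Treg differences that move without it are given both ways.

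Both genes with the largest genotype differences are shown by the 250 bases before their RefSeq start sites (GRCm38.p6, each read 5′ to 3′ on its gene's strand), because NF-kappaB proteins are known to bind kappaB motifs in promoters. For Slc7a10 this is chr7:35186135-35186384 on the plus strand, and for Slc1a4 it is chr11:20332714-20332963 on the minus strand. Capitals mark a match to the kappaB consensus.
Slc7a10: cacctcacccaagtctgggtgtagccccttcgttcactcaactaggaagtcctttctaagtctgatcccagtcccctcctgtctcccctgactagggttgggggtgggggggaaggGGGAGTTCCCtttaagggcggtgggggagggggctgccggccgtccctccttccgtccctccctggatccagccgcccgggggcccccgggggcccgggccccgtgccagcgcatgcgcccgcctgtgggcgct
Slc1a4: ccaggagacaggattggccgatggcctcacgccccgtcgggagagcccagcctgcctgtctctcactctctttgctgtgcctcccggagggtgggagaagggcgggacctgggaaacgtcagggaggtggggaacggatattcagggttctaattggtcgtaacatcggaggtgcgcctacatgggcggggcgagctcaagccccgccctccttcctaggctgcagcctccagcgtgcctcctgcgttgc
The Slc7a10 window holds 1 kappaB match, GGGAGTTCCC, 134 to 125 bases before the start. The Slc1a4 window holds none on either strand. Among all 32851 RefSeq mouse windows of this length, 3.90% held a kappaB match. RefSeq windows were matched for 7 of the 10 genes, with 2 windows each for Slc7a1 and Slc7a6. Slc7a5, Slc1a5 and Slc38a1 had no window and were not searched. Slc7a10 was the only one of the 7 with this motif. The amino acid response element TGATGNAA, found in 3.45% of all windows, had 2 matches in the Slc7a11 window, at 66 to 59 and 47 to 40 bases before the start, and none in the other 6. Of the other motifs searched on both strands, the antioxidant response element TGACNNNGC (10.2% of all windows) matched in Slc7a1, Slc7a6 and Slc38a2. The STAT5 palindrome TTCNNNGAA (7.02%) matched in Slc7a1 and Slc7a11, and the E-box CACGTG (6.02%) in none. A match is a stretch of letters and was not tested as a binding site.

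Expressed per kilobase of the deposited gene length, the 10 genes spanned the whole range from abundant to barely detected. In cRel+/+ splenic Tregs, Slc1a5 came first at 156 ± 2.00 CPM per kb (SD, n = 2), then Slc3a2 at 53.9 ± 0.53, Slc38a2 at 34.4 ± 2.02, Slc7a5 at 26.2 ± 0.87, Slc7a6 at 18.6 ± 0.89 and Slc38a1 at 16.0 ± 0.02 CPM per kb. Slc7a10 followed at 5.17 ± 0.35, Slc7a1 at 3.37 ± 0.17, Slc1a4 at 0.57 ± 0.12 and Slc7a11 at 0.0065 ± 0.0030 CPM per kb. No neighbours in this order had overlapping libraries. Slc1a5 was also first in the de novo Tregs of both genotypes, at 161 ± 7.85 CPM per kb in cRel-/- and 162 ± 6.19 CPM per kb in cRel+/+ (n = 2 each). In pre-Tregs Slc1a5 and Slc38a2 stood close together, at 75.3 ± 19.5 and 62.3 ± 11.8 CPM per kb in cRel-/- (n = 3), where their libraries overlapped, and at 69.4 ± 0.65 and 61.4 ± 0.79 CPM per kb in cRel+/+ (n = 2), where they did not. Slc3a2 and Slc38a2 changed places between stages, with Slc38a2 ahead in the pre-Treg means of both genotypes and Slc3a2 ahead in the de novo and splenic means of both. In the cRel-/- pre-Tregs and cRel-/- de novo Tregs the libraries of these genes overlapped.

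**Figure D1:**
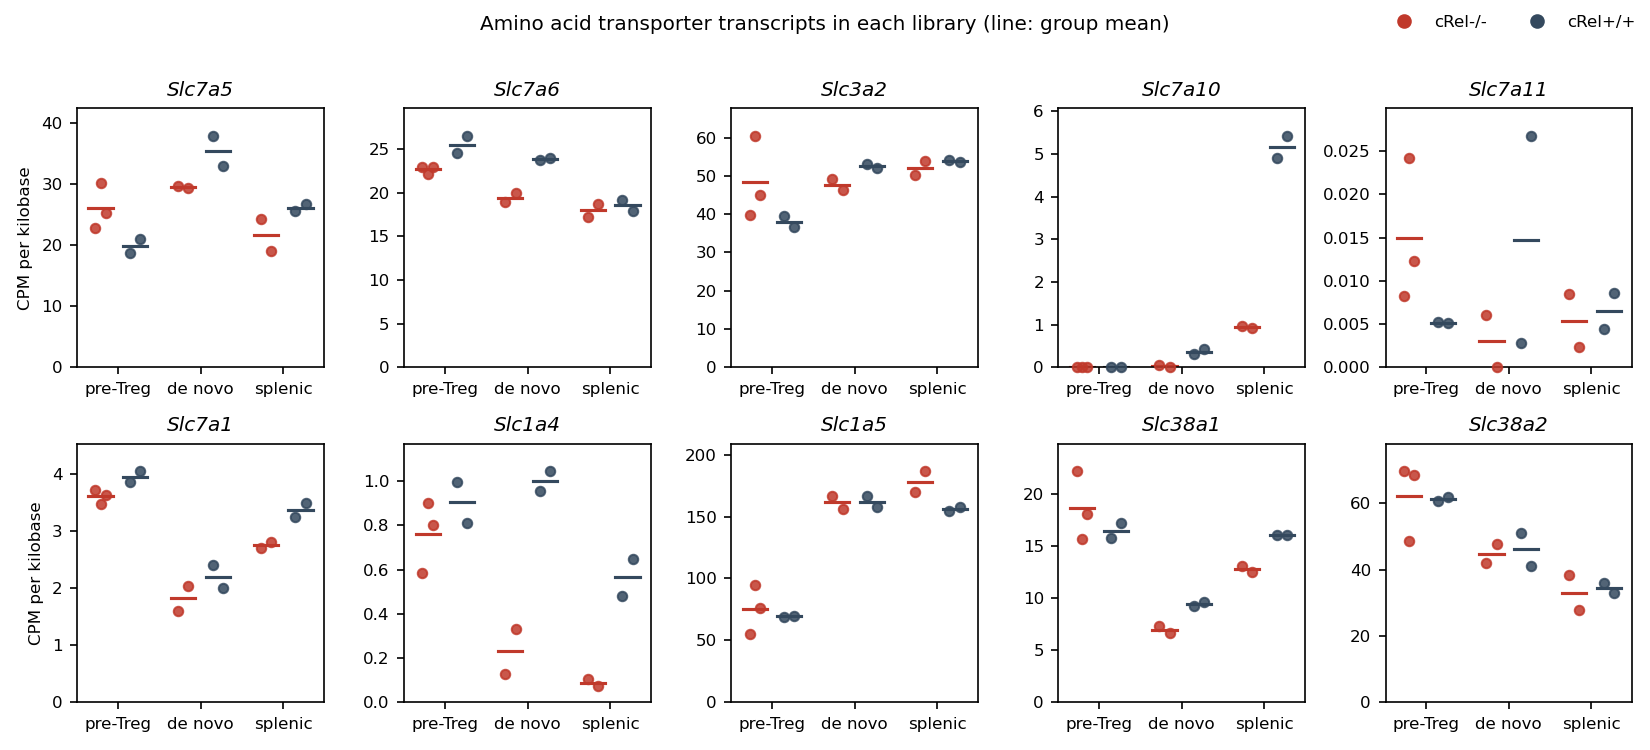
Transcript level of each of the 10 transporter genes in each of the 13 libraries, in CPM per kilobase of gene length, with a separate vertical axis from 0 for each gene. Points are libraries, horizontal lines group means. The cRel-/- splenic points of Slc7a10 lie near 0.94 CPM per kb, and the cRel+/+ points lie at 4.92 and 5.42, while Slc1a5 is at 154.6 CPM per kb or more in all 8 de novo and splenic libraries.

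With c-Rel absent, Slc1a4 and Slc38a1 fell in de novo Tregs, where 3.54% of all genes fell and 2.92% rose. Slc7a10 was lower too, but it passed the filter on low counts through the cRel+/+ libraries alone and is kept out of this. With 1 library left out, 1 or 2 members were called, and Slc1a4 alone kept its call in all 4 of these fits. None of the tested members passed in pre-Tregs, whose libraries varied more (common coefficient of variation 0.284, against 0.0939 in de novo Tregs). In the spleen Slc1a4 again had far fewer counts in both cRel-/- libraries, though it missed the threshold. The abundant carriers Slc1a5, Slc3a2 and Slc38a2 had log2 fold changes between −0.14 and 0.19 at both Treg stages. The group of genes was picked with results of these data known, Slc7a10 being chosen by its low splenic level in cRel-/- cells, so that difference is given without a test and the other p-values describe these genes only. All adjusted p-values are from edgeR's quasi-likelihood test with Benjamini-Hochberg adjustment over all genes of the fit.

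Slc7a10 (ENSMUSG00000030495, GRCm38 chromosome 7, 35186385 to 35201114, plus strand) had 69 and 60 counts in cRel-/- splenic Tregs, against 335 and 381 counts in cRel+/+ splenic Tregs. On the depth-scaled level this was 2.03 and 1.93 CPM in cRel-/- and 10.4 and 11.4 CPM in cRel+/+. The gene was chosen by this difference, so the gap between the genotypes is no separate support for it. The fitted log2 fold change, cRel-/- over cRel+/+, was −2.46 (SE 0.22). In bulk samples such as these, fewer cells that express a gene and less RNA per cell cannot be told apart.

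In de novo Tregs Slc7a10 was near the detection limit, with 2 and 0 counts in cRel-/- libraries and 17 and 24 counts in cRel+/+ libraries. The gene passed the filter on low counts through the cRel+/+ libraries alone. The fitted log2 fold change was −4.09 (SE 0.99, adjusted p = 0.0316 by edgeR), and the summed counts gave a ratio of 0.0527 of cRel-/- over cRel+/+ (95% interval 0.00617 to 0.203, counting error only). The call did not hold when any single library was left out (adjusted p 0.0577 to 0.225 by edgeR) or in DESeq2 (adjusted p = 0.0586). Pre-Tregs of either genotype had 0 counts in all 5 libraries, which allows up to 0.101 to 0.218 CPM in a library.

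Reads of Slc7a10 may be shared with Lrp3, a receptor gene on the opposite strand that overlaps 377 of its exon bases, or 17.9%. Strand use in the counting was not given in the sources used here. Lrp3 had 16 and 8 counts in cRel-/- splenic Tregs, against 67 and 21 counts in cRel+/+ splenic Tregs (log2 fold change −1.88, SE 0.74, adjusted p = 0.306 by edgeR). In de novo Tregs Lrp3 had 0 and 0 counts in cRel-/- and 0 and 1 in cRel+/+ libraries. The Lrp3 counts were below the Slc7a10 counts in every splenic library, and the part of the overlap in the Slc7a10 values was not tested.

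Slc1a4 (ENSMUSG00000020142, chromosome 11, 20302180 to 20332713, minus strand) was expressed at a low level. It had 12 and 33 counts in cRel-/- de novo Tregs, against 98 and 110 counts in cRel+/+ de novo Tregs. The log2 fold change was −2.10 (SE 0.43, adjusted p = 0.0137 by edgeR), and the call held with each of the 4 libraries left out in turn (log2 fold changes −2.94 to −1.58). In the spleen Slc1a4 had 14 and 9 counts in cRel-/- libraries, against 61 and 85 counts in cRel+/+ libraries. The groups did not overlap, but the log2 fold change of −2.65 (SE 0.52) missed the threshold with an adjusted p of 0.0573 by edgeR. DESeq2 called it (adjusted p = 0.0065), as did edgeR without a filter on low counts (0.00949). Without cRel-/- replicate 1 or 2 the log2 fold change was −2.92 or −2.42. In the spleen Slc1a4 passed the filter only through its cRel+/+ libraries, since cRel-/- replicate 2 had 9 counts, under the minimum of 10. The splenic calls are therefore description and no separate support. Pre-Tregs had 40, 105 and 55 counts in cRel-/- libraries and 54 and 45 counts in cRel+/+ libraries, which at their depths overlapped (log2 fold change −0.23, SE 0.38, adjusted p = 0.860 by edgeR).

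Slc38a1 (ENSMUSG00000023169, chromosome 15, 96571418 to 96642913, minus strand) was a moderate difference in an abundant gene. De novo Tregs had 61.1 and 55.5 CPM in cRel-/- libraries, against 77.7 and 80.7 CPM in cRel+/+ libraries. The groups were apart, and Slc38a1 fell by 0.44 on the log2 scale (SE 0.09, adjusted p = 0.0177 by edgeR). The call was lost without cRel-/- replicate 2 (adjusted p = 0.0699) and without either cRel+/+ replicate (0.053 and 0.0958). Splenic Tregs had 109 and 105 CPM in cRel-/- libraries, against 134 and 134 CPM in cRel+/+ libraries, also apart, at a difference of −0.32 (SE 0.10, adjusted p = 0.188). In pre-Tregs the libraries overlapped, with 131 to 186 CPM in cRel-/- and 132 to 144 CPM in cRel+/+. This overlap came from cRel-/- replicate 2 (131 CPM), the other cRel-/- libraries being at 186 and 152 CPM. Its neighbour Slc38a2 (96687394 to 96699698 on the same chromosome and strand, 44.5 kb away) differed by 0.03 (SE 0.20) in pre-Tregs, −0.04 (SE 0.11) in de novo Tregs and −0.06 (SE 0.15) in splenic Tregs on the log2 scale, and its libraries overlapped at every stage. The pre-Treg overlap of Slc38a2 came from the same library, at 225 CPM. Its other cRel-/- pre-Treg libraries were at 322 and 317 CPM, above the cRel+/+ libraries at 281 and 287 CPM.

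The heavy chain and its abundant light chains differed less. Slc7a5, the leucine importer (chromosome 8, 121881150 to 121907694, minus strand), had 110 and 109 CPM in cRel-/- de novo Tregs, against 140 and 122 CPM in cRel+/+ de novo Tregs. Its splenic level was 89.9 and 70.5 CPM in cRel-/- libraries, against 94.7 and 99.3 CPM in cRel+/+ libraries. The groups were apart at both stages without passing the test, the log2 fold change being −0.26 in de novo Tregs (SE 0.09, adjusted p = 0.130 by edgeR) and −0.27 in splenic Tregs (SE 0.14, adjusted p = 0.423). In pre-Tregs the order was turned round, with 84.9, 112 and 94.0 CPM in cRel-/- and 69.7 and 78.0 CPM in cRel+/+, a difference of 0.41 on the log2 scale (SE 0.20, adjusted p = 0.720). Without cRel-/- pre-Treg replicate 2 it was 0.28 (SE 0.15, adjusted p = 0.543). Slc3a2 (chromosome 19, 8706882 to 8723369, minus strand), the partner chain of Slc7a5, likewise differed by 0.37 on the log2 scale (SE 0.22, adjusted p = 0.724) in pre-Tregs, then −0.14 (SE 0.08, adjusted p = 0.396) in de novo and −0.05 (SE 0.10, adjusted p = 0.874) in splenic Tregs. Its pre-Treg value was 0.17 (SE 0.14) without the same library.

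Slc7a6 (chromosome 8, 106168875 to 106198704, plus strand) had 70.7 and 74.3 CPM in cRel-/- de novo Tregs, against 88.5 and 89.4 CPM in cRel+/+ de novo Tregs. These groups were apart, and the log2 fold change of −0.29 (SE 0.09) gave an adjusted p of 0.0745 by edgeR. Its splenic libraries overlapped (log2 fold change −0.05, SE 0.11), and its pre-Treg value was −0.15 (SE 0.16). Slc7a11, the cystine carrier (chromosome 3, 49892526 to 50443614, minus strand), was at 10 counts or fewer in all 13 libraries and passed the filter in no fit. It had 2, 10 and 3 counts in cRel-/- pre-Tregs against 1 and 1 in cRel+/+ pre-Tregs, 2 and 0 in cRel-/- de novo Tregs against 1 and 10 in cRel+/+ de novo Tregs, and 4 and 1 in cRel-/- splenic Tregs against 2 and 4 in cRel+/+ splenic Tregs. The summed counts gave a ratio of cRel-/- over cRel+/+ of 3.24 in pre-Tregs (95% interval 0.754 to 29.2), 0.196 in de novo Tregs (0.0212 to 0.900) and 0.838 in splenic Tregs (0.202 to 3.30), covering counting error only. The de novo interval lies below 1, but the 4 de novo libraries overlapped between genotypes.

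Slc7a1 (chromosome 5, 148327410 to 148399904, minus strand) and Slc1a5 (chromosome 7, 16781340 to 16798274, plus strand) passed no genotype test. The log2 fold changes of Slc7a1 were −0.12 (SE 0.18), −0.27 (SE 0.15) and −0.29 (SE 0.12) at the pre-Treg, de novo and splenic stages, with adjusted p-values of 0.848, 0.399 and 0.329 by edgeR. Those of Slc1a5 were 0.13 (SE 0.24), −0.01 (SE 0.07) and 0.19 (SE 0.09), with adjusted p-values of 0.869, 0.984 and 0.373. Without cRel-/- pre-Treg replicate 2 its pre-Treg value was −0.07 (SE 0.17). Splenic Slc1a5 was the only member above 0 in splenic Tregs, with 709 and 778 CPM in cRel-/- libraries, against 645 and 657 CPM in cRel+/+ libraries.

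Counted over the members, 0 of the 8 that passed the filter were called in pre-Tregs, where edgeR called 0% of all genes. No member had an unadjusted p under 0.05 there, and DESeq2 called 0. In de novo Tregs 2 of the 8 tested members other than Slc7a10 fell and 0 rose, where 3.54% of all 11855 genes fell and 2.92% rose. Slc7a10 also fell, but it had been tested only because its cRel+/+ counts were high enough, so it is kept out of the counts. In splenic Tregs edgeR called 0 of the same 8 genes, where 0.758% of all 12264 genes were called lower. Of these 8, 3 had an unadjusted p under 0.05, as did 14.3% of all genes, and DESeq2 called 1. Slc1a4 is in both counts, although it passed the splenic filter only through its cRel+/+ libraries. The median log2 fold change of the 8 was −0.27 in de novo and −0.16 in splenic Tregs, against −0.0027 and 0.00055 over all genes. Libraries did not overlap, with cRel-/- lower, for 5 of the 8 in de novo Tregs (24.6% of all genes) and for 4, Slc1a4 among them, in splenic Tregs (23.3%).

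**Figure D2:**
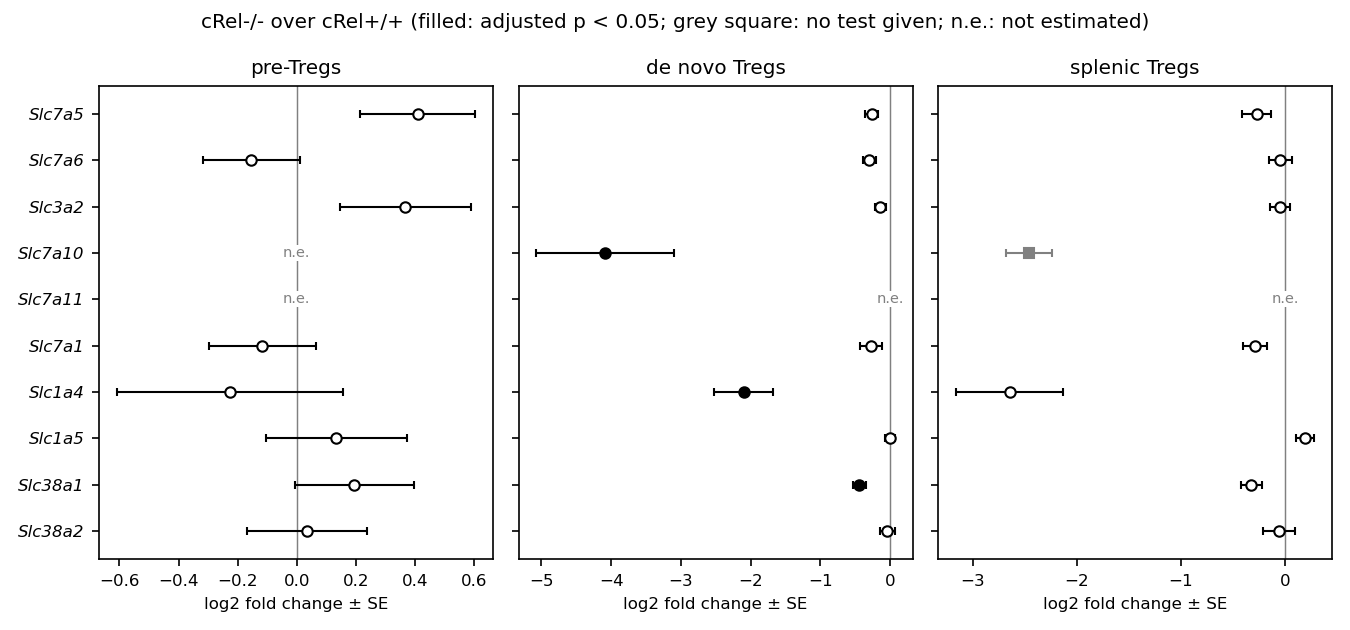
Log2 fold change of each member, cRel-/- over cRel+/+, at the 3 stages, with bars of 1 SE on horizontal axes of different width. Filled points passed an adjusted p of 0.05 in edgeR, and the grey square is the Slc7a10 difference given without a test. Slc7a10 (−4.09) and Slc1a4 (−2.10) lie far left of the other genes in de novo Tregs. The filled de novo point of Slc7a10 is kept out of the counts in the text. That gene passed the filter on low counts through the cRel+/+ libraries alone, and its call did not hold with any single library left out or in DESeq2.

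Whether a genotype difference changed with stage was tested by interaction terms over all 13 libraries. No member passed, for de novo minus pre-Treg (0.0842% of all 13058 genes called) or for splenic minus de novo (0.00766%). At an unadjusted p under 0.05 there were 3 members in the first, with 10.2% of all genes, and 0 in the second, with 4.52%. DESeq2 called 0 in both. The largest difference between de novo Tregs and pre-Tregs was in Slc1a4, at −1.86 (SE 0.62, adjusted p = 0.321 by edgeR), followed by Slc7a5 at −0.66 (SE 0.22, adjusted p = 0.332) and Slc38a1 at −0.62 (SE 0.21, adjusted p = 0.340). Slc7a10 had no estimate in this term because its pre-Treg libraries were all at 0. Its splenic minus de novo term is not given, since it rests on the splenic difference for which the gene was chosen. Without cRel-/- pre-Treg replicate 2 the Slc1a4, Slc7a5 and Slc38a1 terms were −1.72, −0.54 and −0.74, with adjusted p-values of 0.253, 0.204 and 0.052.

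Across stages the carriers moved in different directions. From pre-Treg to de novo Treg the glutamine carrier Slc1a5 rose in both genotypes, while Slc38a1 and Slc7a1 fell in both. Slc38a1, Slc7a1 and Slc7a10 were then higher in the spleen than in de novo Tregs of both genotypes. In cRel-/- cells 1 of 9 tested members rose and 3 fell from pre-Treg to de novo, where 15.4% of all genes rose and 17% fell. In cRel+/+ cells 3 rose, Slc7a10 among them, and 2 fell, where 16.1% rose and 14.7% fell. Between de novo and spleen edgeR called 3 members higher, Slc7a10 among them, and 0 lower in each genotype. Of all genes 6.48% rose and 6.39% fell in cRel-/-, and 3.5% rose and 3.95% fell in cRel+/+. DESeq2 also called 1 member lower in each genotype, Slc7a5 in cRel-/- (adjusted p = 0.0474) and Slc7a6 in cRel+/+ cells (0.0107). It called 17.2% and 12.1% of all genes there, in either direction. Slc7a10 was at 0 in pre-Tregs and was chosen by its splenic values, so its rises are given below without a test. Proliferation genes moved with these stages: from pre-Treg to de novo 19 of 20 fell in cRel-/- and 14 in cRel+/+ cells, and from de novo to spleen 17 fell in cRel-/- cells and 0 passed in cRel+/+ cells (4 at an unadjusted p under 0.05, 1 in DESeq2). Of 8 immature thymocyte markers, 5 fell in cRel-/- and 3 in cRel+/+ cells from pre-Treg to de novo. From de novo to spleen 7 fell and 1 rose in cRel-/- cells, and 6 fell in cRel+/+ cells. Their part in the transporter changes was not tested. Each stage pair shares its libraries with other contrasts, and each value below is the contrast's own.

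Slc1a5 had 697 and 650 CPM in cRel-/- de novo Tregs, against 231, 394 and 317 CPM in cRel-/- pre-Tregs. Both de novo libraries lay above all 3 pre-Treg libraries, a rise of 1.10 on the log2 scale (SE 0.17, adjusted p = 0.000493 by edgeR). In cRel+/+ cells it had 695 and 658 CPM in de novo Tregs, against 288 and 291 CPM in pre-Tregs (log2 fold change 1.22, SE 0.19, adjusted p = 0.000975). From de novo to spleen it differed by 0.14 (SE 0.19) in cRel-/- and −0.05 (SE 0.19) in cRel+/+ cells, without passing the test. Slc38a2, the other abundant neutral carrier, had 194 and 221 CPM in cRel-/- de novo Tregs, against 322, 225 and 317 CPM in cRel-/- pre-Tregs. Its log2 fold change of −0.47 (SE 0.18) gave an adjusted p of 0.0642 by edgeR and was −0.62 (SE 0.15, adjusted p = 0.00304) without the pre-Treg library that stood apart. In cRel+/+ cells the value was −0.41 (SE 0.20, adjusted p = 0.127). From de novo to spleen Slc38a2 differed by −0.44 (SE 0.20, adjusted p = 0.184 by edgeR) in cRel-/- and −0.42 (SE 0.20, adjusted p = 0.242) in cRel+/+ cells.

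Slc38a1 fell to 61.1 and 55.5 CPM in cRel-/- de novo Tregs, against 186, 131 and 152 CPM in cRel-/- pre-Tregs (log2 fold change −1.42, SE 0.15, adjusted p = 2.59e-05 by edgeR). The cRel+/+ fall was −0.80 (SE 0.16, adjusted p = 0.00344). In the spleen it rose against de novo by 0.88 (SE 0.16, adjusted p = 0.00293) in cRel-/- and 0.76 (SE 0.16, adjusted p = 0.0106) in cRel+/+ cells, the cRel+/+ call being lost without any 1 of its 4 libraries (adjusted p 0.069 to 0.106). The arginine carrier Slc7a1 took the same course. It had 18.5 and 23.5 CPM in cRel-/- de novo Tregs, against 42.8, 40.0 and 41.9 CPM in cRel-/- pre-Tregs, and 27.8 and 23.0 CPM in cRel+/+ de novo Tregs, against 44.5 and 46.6 CPM in cRel+/+ pre-Tregs. These falls were −0.98 (SE 0.15, adjusted p = 0.000367) and −0.84 (SE 0.16, adjusted p = 0.00257), and the rises in the spleen were 0.60 (SE 0.16, adjusted p = 0.0242) in cRel-/- and 0.61 (SE 0.16, adjusted p = 0.0304) in cRel+/+ cells. The splenic rises of Slc7a1 are less firm, since the cRel-/- call was lost without either splenic library or de novo replicate 1 (adjusted p 0.074 to 0.232) and the cRel+/+ call without any 1 of its 4 libraries (0.0821 to 0.238).

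Slc7a5 rose in cRel+/+ cells, to 140 and 122 CPM in de novo Tregs, against 69.7 and 78.0 CPM in pre-Tregs (log2 fold change 0.83, SE 0.16, adjusted p = 0.00359 by edgeR). In cRel-/- cells the difference was 0.17 (SE 0.15, adjusted p = 0.389), and the interaction given above did not pass. Slc1a4 fell in cRel-/- cells, where de novo Tregs had 0.50 and 1.31 CPM against 2.30, 3.54 and 3.15 CPM in pre-Tregs (log2 fold change −1.72, SE 0.44, adjusted p = 0.0106). Without cRel-/- de novo replicate 1 this was −1.21 (adjusted p = 0.117), and the cRel+/+ value was 0.15 (SE 0.44, adjusted p = 0.820). Slc3a2 differed by 0.47 on the log2 scale (SE 0.17, adjusted p = 0.0536) in cRel+/+ and −0.02 (SE 0.16) in cRel-/- cells. Slc7a6 passed neither de novo test (−0.22, SE 0.11, in cRel-/- and −0.10, SE 0.12, in cRel+/+). From de novo to spleen none of these genes passed in edgeR. In cRel-/- and cRel+/+ cells Slc7a5 differed by −0.45 (SE 0.16, adjusted p = 0.0951) and −0.44 (SE 0.16, adjusted p = 0.130). Slc7a6 differed by −0.11 (SE 0.12) and −0.36 (SE 0.12, adjusted p = 0.0896), Slc1a4 by −1.36 (SE 0.51) and −0.82 (SE 0.43), and Slc3a2 by 0.13 (SE 0.17) and 0.04 (SE 0.17).

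Slc7a10 was the one member that went from undetected to measurable. Against a floor of 3 counts in each pre-Treg library, averaged over the group, its mean level was at least 3.59-fold higher in cRel+/+ de novo Tregs, at least 13.3-fold higher in cRel-/- splenic Tregs and at least 50.7-fold higher in cRel+/+ splenic Tregs. From de novo to spleen the log2 fold change was 5.43 (SE 0.74) in cRel-/- cells and 3.81 (SE 0.52) in cRel+/+ cells. These rises are given without a test, because the gene was chosen by its splenic values. The overlapping gene Lrp3 was also higher in the spleen than in de novo Tregs of both genotypes, at the counts given above. It passed the filter on low counts through the splenic libraries alone, so this rise too is given without a test.

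**Figure D3:**
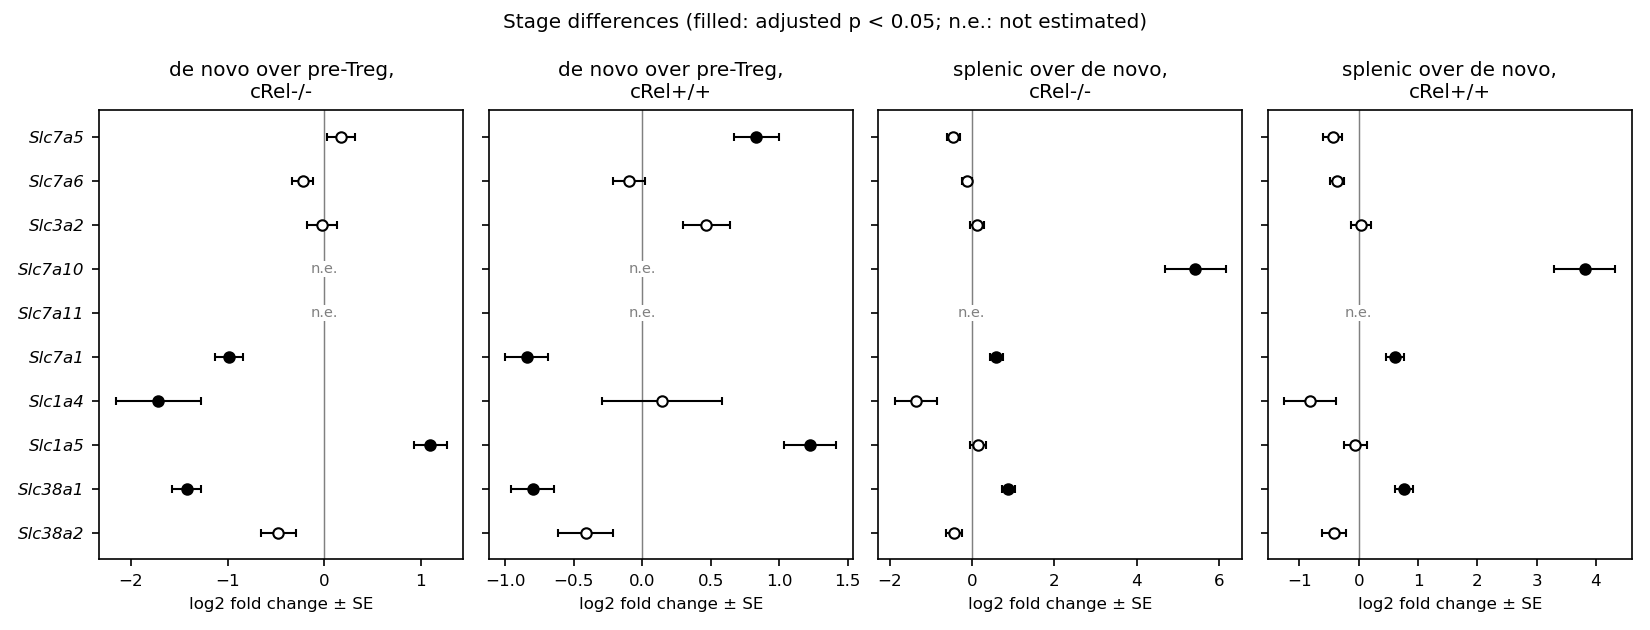
Log2 fold change ± SE of each member between stages, within cRel-/- and within cRel+/+ libraries, on horizontal axes of different width. Filled points passed an adjusted p of 0.05 in edgeR. Slc1a5 lies above 1 and Slc38a1 and Slc7a1 below 0 in both de novo over pre-Treg panels. Slc7a10 lies at 5.43 and 3.81 in the splenic panels, where its test is not used because it was chosen by its splenic values.

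By the root mean square distance between centred log2 CPM means of the 6 groups, the 5 genes nearest to Slc7a10 among 13057 were Klrg1 (0.68), Nid2 (0.80), Tigit (0.91), Fgf16 (0.92) and Cybb (0.97). Klrg1, a receptor of differentiated effector Tregs, had mean levels of 0.63 CPM in cRel-/- and 7.68 CPM in cRel+/+ de novo Tregs, and of 32.4 CPM in cRel-/- and 47.3 CPM in cRel+/+ splenic Tregs. Tigit, an inhibitory receptor, had 2.80 CPM in cRel-/- and 15.5 CPM in cRel+/+ de novo Tregs, and 33.8 CPM in cRel-/- and 44.2 CPM in cRel+/+ splenic Tregs. In cRel-/- and cRel+/+ splenic Tregs the means were 4.03 and 4.67 CPM for Nid2, 1.07 and 1.82 CPM for Fgf16, and 35.9 and 35.8 CPM for Cybb. Those of Slc7a10 were 1.98 and 10.9 CPM. All 5 nearest genes were near 0 in pre-Tregs of both genotypes (2.16 CPM or less). Slc3a2, the heavy chain, ranked 971 of 13057 by likeness to its light chain Slc7a5, at a distance of 0.23.

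Other genes of amino acid handling were taken from lists that were set with earlier results of these data known. Of 19 tested genes of the ATF4 amino acid response, 2 rose and 3 fell in cRel-/- de novo Tregs, set against the same 2.92% and 3.54% of all genes. Trib3, a stress-induced pseudokinase, had 33.1 and 27.7 CPM in cRel-/- libraries, against 11.2 and 11.5 CPM in cRel+/+ libraries (log2 fold change 1.42, SE 0.14, adjusted p = 0.00014 by edgeR). Sesn2, a leucine sensor, had 17.1 and 17.0 CPM in cRel-/- libraries, against 31.1 and 34.3 CPM in cRel+/+ libraries (−0.94, SE 0.12, adjusted p = 0.000899). Both genes kept their calls with each library left out in turn. Shmt2, of mitochondrial serine use, fell by 0.37 on the log2 scale (SE 0.08, adjusted p = 0.0173), and Aldh18a1, of proline synthesis, rose by 0.31 (SE 0.07, adjusted p = 0.0235). The Shmt2 call was lost without cRel+/+ replicate 1 (adjusted p = 0.130), and the Aldh18a1 call without cRel-/- replicate 1 or either cRel+/+ replicate (0.0649 to 0.116). The remaining call, Asns (asparagine synthetase), is named after its values were seen, with 13 and 12 counts in cRel-/- and 61 and 43 counts in cRel+/+ de novo Tregs (−1.94, SE 0.48, adjusted p = 0.036). The list's count was 3 without cRel-/- replicate 1 and 2 without cRel+/+ replicate 1, and its median was −0.15 against −0.0027 over all genes. Atf4 itself had 77.8 and 81.5 CPM in cRel-/- and 92.9 and 84.2 CPM in cRel+/+ de novo Tregs, and did not pass.

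In the other lists, too, the shares of all genes called in de novo Tregs were 2.92% higher and 3.54% lower. Of 18 other amino acid transporters tested, 1 fell and 0 rose. Slc43a1, a large neutral amino acid carrier, had 44.9 and 29.9 CPM in cRel-/- libraries, against 64.4 and 52.5 CPM in cRel+/+ libraries (log2 fold change −0.64, SE 0.17, adjusted p = 0.0478 by edgeR), and the call was lost without cRel-/- replicate 2 (adjusted p = 0.137) or cRel+/+ replicate 1 (0.212). Among 14 genes of glutathione and cystine use, Gclc, the catalytic subunit of the first step of glutathione synthesis, rose, with 251 and 242 CPM in cRel-/- libraries, against 138 and 155 CPM in cRel+/+ libraries (0.75, SE 0.08, adjusted p = 0.000276). It was the only call of that list in the fit reported, against 2 rising genes in DESeq2, without a filter on low counts, with the replicate block or without cRel-/- replicate 2. Among 16 genes of glutamine, arginine and branched-chain amino acid use, Bcat1, the cytosolic branched-chain aminotransferase, was the only call and fell by 0.69 on the log2 scale (SE 0.15, adjusted p = 0.0195), a call lost without cRel-/- replicate 1 (0.0607) or cRel+/+ replicate 1 (0.0862). No gene passed among 31 of mTORC1 amino acid sensing or 20 cytosolic aminoacyl-tRNA synthetases. At an unadjusted p under 0.05 there were 7 and 2 of these, with 18.3% of all genes, and DESeq2 called 0 of both. The mTORC1 count was 3 without cRel-/- replicate 1, 1 without cRel-/- replicate 2, and 2 without a filter on low counts or with the replicate block. The synthetase count was 1 without cRel+/+ replicate 2.

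In splenic Tregs edgeR called 0 genes of the same 6 lists. At an unadjusted p under 0.05 there were 11 of 20 in the ATF4 list, 6 of 16 in the glutathione list, 5 of 31 in the mTORC1 list, 3 of 20 synthetases, 3 of 17 in the glutamine list and 2 of 19 other transporters, and DESeq2 called 5, 2, 0, 0, 1 and 1 of them. Over all genes 14.3% had such a p. Without cRel-/- splenic replicate 1 edgeR called 12 of the ATF4 list (5 higher, 7 lower), 11 synthetases, 9 of the mTORC1 list, 6 of the glutamine list, 5 of the glutathione list and 2 other transporters, and 2508 of all 12567 genes. Without cRel-/- replicate 2 these counts were 8, 1, 4, 1, 7 and 2, with 1548 of all 12629 genes. Without cRel+/+ replicate 1 or 2 they ran from 0 to 2. In pre-Tregs edgeR again called 0 genes in all 6 lists, where 5 genes of the ATF4 list, 2 of the mTORC1 list, 2 other transporters and 0 of the rest had an unadjusted p under 0.05, with 6.57% of all genes, and DESeq2 called 2 of the ATF4 list and 1 of the mTORC1 list.

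**Figure D4:**
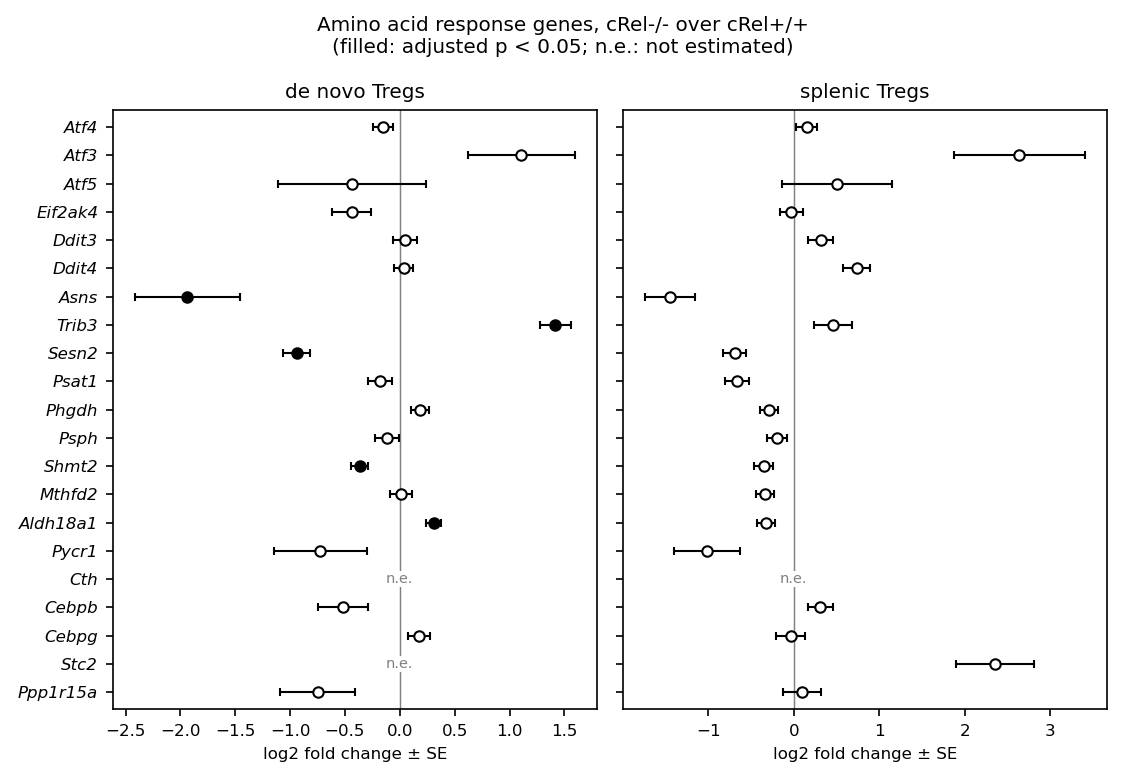
Log2 fold change ± SE, cRel-/- over cRel+/+, of the ATF4 amino acid response genes tested in de novo or splenic Tregs. Filled points passed an adjusted p of 0.05 in edgeR: Trib3 (1.42) and Aldh18a1 lie right of 0 in de novo Tregs, Sesn2 (−0.94), Shmt2 and Asns (−1.94) left of it, and no splenic point is filled.

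Between stages, genes of mTORC1 amino acid sensing moved in both directions. From pre-Treg to de novo, 8 of 31 genes rose and 1 fell in cRel-/- cells, and 9 rose and 5 fell in cRel+/+ cells, set against the shares of all genes given above. Rragd, a GTPase that recruits mTORC1 to lysosomes, had 27.8 and 36.4 CPM in cRel-/- de novo Tregs, against 3.68, 3.23 and 5.43 CPM in cRel-/- pre-Tregs (log2 fold change 2.97, SE 0.23, adjusted p = 2.72e-06 by edgeR). The cRel+/+ value was 2.93 (SE 0.28, adjusted p = 3.34e-05). Slc16a10, an aromatic amino acid carrier of the other transporters, fell in both genotypes, with log2 fold changes −3.03 in cRel-/- (SE 0.49, adjusted p = 0.000612) and −3.32 in cRel+/+ cells (SE 0.51, adjusted p = 0.000881). In the spleen against de novo, 1 mTORC1 gene rose in cRel-/- cells and 0 passed in cRel+/+ cells, where 4 had an unadjusted p under 0.05, with 21.5% of all genes, and DESeq2 called 0.

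Other transcripts moved with the same groups. The 20 proliferation genes summed to 855 to 1294 CPM in cRel-/- splenic libraries, against 1928 to 2068 CPM in cRel+/+ splenic libraries, and 10 of them were called lower by edgeR, where 0.758% of all genes were, and 16 by DESeq2. Without 1 splenic library edgeR called 14 to 20 of them. In de novo Tregs their sums overlapped, at 1920 to 1986 CPM in cRel-/- and 1656 to 1988 CPM in cRel+/+, and 2 were called higher. Myeloid and dendritic cell markers summed to 145 to 167 CPM in cRel-/- and 195 to 227 CPM in cRel+/+ splenic Tregs, and to 135 to 156 CPM in cRel-/- and 164 to 166 CPM in cRel+/+ de novo Tregs. B and plasma cell markers were at 62.2 to 96.1 CPM in cRel-/- and 41.1 to 51.5 CPM in cRel+/+ splenic Tregs, and NK cell markers at 15.7 to 25.8 CPM in cRel-/- and 25.2 to 27.7 CPM in cRel+/+ splenic Tregs. No marker of these 3 lists was at 0 in all 4 splenic libraries. Erythroid and platelet markers were at 0.63 to 0.99 CPM in cRel-/- and 2.79 to 105 CPM in cRel+/+ de novo Tregs. Thymic stroma markers were at 326 to 329 CPM in cRel-/- and 243 CPM in both cRel+/+ de novo libraries, mostly Pecam1. Among the epithelial markers of this list, Foxn1 and Krt5 were at 0. Of 3 stroma markers tested there, 2 were called higher in cRel-/- cells by edgeR, where 2.92% of all genes were, and 2 by DESeq2. Immature thymocyte markers were at 233 to 1126 CPM in cRel-/- and 154 to 376 CPM in cRel+/+ pre-Tregs. Also in pre-Tregs, proliferation genes summed to 3828 to 4465 CPM in cRel-/- and 3006 to 3237 CPM in cRel+/+ libraries, myeloid markers to 145 to 209 and 92.0 to 136 CPM, NK cell markers to 41.8 to 99.1 and 30.5 to 38.1 CPM, and thymic stroma markers to 212 to 226 and 187 to 195 CPM, with no overlap between the genotypes. Their part in the transporter differences was not tested.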

How the data were processed

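Bulk RNA sequencing counts of 13 libraries in 6 groups (3 stages, 2 genotypes) were used. Each of the 3 deposited tables holds whole-number counts of reads per gene for 1 stage, with gene names and lengths. The submitters' processing notes name the build GRCm38 and, as tools, STAR 2.5.2, Subread 1.5.2 with featureCounts, Picard 2.9.0, limma, FastQC and MultiQC. Neither the annotation release nor the strand setting is given in the sources used here. The number of columns of per-sample values not used was 0.

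Counts were tested with edgeR 4.0.16 (R 4.3.3, TMM scaling, filterByExpr with a minimum count of 10 and total of 15, quasi-likelihood F test), with Benjamini-Hochberg adjustment over all genes of a fit and a threshold of 0.05. Genotypes were compared within each stage's table. Stages and interactions came from 1 fit of 6 group means on the 22048 shared genes. SEs are the log2 fold change divided by the root of F. DESeq2 1.42.0 was an alternative, as were other scaling, no filter, a replicate block, fewer groups and each library left out. A library left alone in its group is assumed to vary like the others. The code was tested on simulated data. Positions come from the GENCODE annotation of GRCm38, and promoter windows from RefSeq.

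The members and gene lists were chosen with earlier results of these data known. All 10 members are named in the genotype and stage comparisons, Slc7a11 by its counts alone, and the interaction terms are named in part. Up to 4 called genes of a list by adjusted p and the 5 genes nearest to Slc7a10 are named too. Stage-only calls of the synthetase, glutathione and glutamine lists are left out, and of the other lists examples are given. Nothing in the labels says that replicates are separate animals, so p-values measure the spread between libraries, which may be technical. Depth sets the precision, and intervals and floors cover counting error only.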

Additional observations from a re-analysis of the deposited data

How the results depend on the processing

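No gene called in the fit reported changed direction under any alternative run. The splenic counts that follow include Slc7a10, which was chosen by its splenic difference, so they are no support for that difference. It is the 1 member counted for splenic Tregs in the fit reported, where 0 of the 8 other tested members were called. Slc1a4, the other call in the splenic counts of 2, passed the filter on low counts there only through its cRel+/+ libraries. The 3 members counted for de novo Tregs in the fit reported include Slc7a10 too. Among splenic Tregs, 2 members were called lower in cRel-/- cells without a filter on low counts, 2 in DESeq2, 2 with the replicate block and 2 with a crossed replicate block chosen after seeing the data, against 1 in the fit reported; with a library left out 1 to 6 were called, the 6 being 5 lower and Slc1a5 higher without cRel-/- replicate 1. In de novo Tregs it ran from 1 to 2 with a library left out, against 3. Same-numbered libraries deviated together with correlations of −0.168, −0.0112 and −0.113 in pre-Treg, de novo and splenic cells, and the labels name no pairing, so the numbers were not used as pairs. With the replicate block, 2 members were called from pre-Treg to de novo in cRel-/- cells and 0 in cRel+/+ cells. From de novo to spleen it called only Slc7a10, whose rise is given without a test, in cRel-/- cells and 0 members in cRel+/+ cells. The last count was 5 with the de novo and splenic groups alone, where 23.6% of all genes were called. Of these 5 members 3 rose, Slc7a10 among them, and 2 fell, Slc7a5 and Slc7a6. In cRel-/- cells the same fit called 3 members higher and 1 lower, Slc7a5, where 28.6% of all genes were called. The cause of these shifts was not tested. Depth limits Slc7a10 in thymic cells and Slc7a11 throughout.

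The values that turned sign all belong to uncalled members. With a library left out, the log2 difference between genotypes ran from −0.073 to 0.302 for Slc1a5 and −0.066 to 0.178 for Slc38a2 in pre-Tregs, from −0.057 to 0.051 and −0.19 to 0.131 for the same genes in de novo Tregs, and among splenic cells from −0.302 to 0.156 for Slc38a2, −0.097 to 0.0032 for Slc3a2 and −0.111 to 0.0201 for Slc7a6. From pre-Treg to de novo it ran from −0.15 to 0.17 for Slc3a2 in cRel-/- and −0.012 to 0.29 for Slc1a4 in cRel+/+ cells. The interaction of de novo with pre-Treg ran from −0.303 to 0.071 for Slc1a5, −0.21 to 0.10 for Slc38a2 and −0.323 to 0.015 for Slc7a1, and that of spleen with de novo from −1.06 to 0.30 for Slc1a4, −0.27 to 0.19 for Slc38a2, −0.17 to 0.17 for Slc7a1 and −0.20 to 0.15 for Slc7a5. The replicate block gave 0.11 for Slc3a2 and −0.29 for Slc1a4 in these stage contrasts, −0.047 for Slc38a2 between pre-Treg genotypes and 0.041 in its first interaction. Fits of the 2 stages alone gave 0.0037 for Slc3a2 in cRel-/- cells and 0.00067 for the Slc7a5 interaction.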
